A study of Arabidopsis thaliana with 251 samples.

Results

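The WRKY genes of Arabidopsis thaliana were followed through the ChIP–seq peak lists of a study that tethered chromatin proteins to the FWA promoter. Members were the genes of the TAIR10 annotation whose symbol is WRKY followed by digits alone, which gave 67 of the 27444 protein-coding genes on the 5 nuclear chromosomes. Of these, 66 carry an annotated product that names WRKY, and the exception, WRKY19, is annotated as a protein kinase family protein. ABO3, ZAP1, TTG2 and TTR1 have a WRKY number among their synonyms but another symbol, so they were not members. Each gene was read through a window of its body plus 500 bp upstream. The median window was 2506 bp for the members and 2578 bp for all genes, so window length was close in both sets.

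All plants were of the Col-0 ecotype. The control fwa carries an epiallele without DNA methylation at FWA and flowers late. The effector lines were T2 plants picked for early flowering. They express an effector joined to the artificial zinc finger 108 (ZF) in the fwa background. The effectors with histone or Pol II lists were LHP1, MSI1, JMJ14, ELF7, HDA6, HD2A, HD2B, HD2C and CPL2. EYFP-ZF, a fluorescent protein on the same ZF, was the fusion control. The paper does not list EYFP-ZF among the fusions that restored early flowering. For Pol II, the elf7 mutant was also set beside wild-type Col-0. The ZF also binds many places outside FWA, so any WRKY gene could hold a site. Leaves of plants aged 4 to 5 weeks gave 104 lists of 9 marks, and unopened flower buds gave 4 lists of FLAG-tagged proteins. A fusion had 2 libraries of a mark (1 for H3K9ac in HD2B-ZF and HD2C-ZF), and nothing in the labels says whether these came from separate plants, so any test measures the spread between libraries alone. The labels give each library a SET number without saying what a SET is, and a SET was read here as 1 data set. Every fusion was read beside fwa of its SETs. In SET3 and SET4 the controls are labelled fwa1 and fwa2, with no word on how they differ. Each counted as a library of fwa.

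WRKY proteins are a plant family of transcription factors named after a conserved WRKYGQK stretch next to a zinc finger, and they bind the W box, TTGACC or TTGACT. Group I proteins hold a pair of WRKY domains, groups IIa to IIe hold a domain with the same type of finger, and group III proteins have another finger type. Many are switched on quickly by pathogens, wounding or salicylic acid and control each other through W boxes in their own promoters, while others act in senescence, nutrient supply, seed, pollen or stem development. H3K27me3 is the mark that Polycomb complexes place on silent genes, H3K4me3 sits at the start of active genes, H3K36 methylation lies along transcribed bodies, and Pol II phosphorylated at Ser5 marks polymerase early in transcription.

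Because the family binds its own promoters, the 150 bases before the start of 6 members are shown, with W boxes in capitals (TTGACC or TTGACT as read, or GGTCAA or AGTCAA where the box lies on the other strand). The sequences and coordinates are from RefSeq, assembly TAIR10.1, 5′ to 3′ on the strand of the gene. WRKY33, WRKY53 and WRKY15 stand for members with H3K4me3 and Pol II, and WRKY12, WRKY29 and WRKY75 for members with H3K27me3.
WRKY33, chr2:16108085-16108234, plus strand: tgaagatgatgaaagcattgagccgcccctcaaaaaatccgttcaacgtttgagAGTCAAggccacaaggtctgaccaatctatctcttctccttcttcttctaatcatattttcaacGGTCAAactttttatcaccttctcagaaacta
WRKY53, chr4:12393983-12394132, minus strand: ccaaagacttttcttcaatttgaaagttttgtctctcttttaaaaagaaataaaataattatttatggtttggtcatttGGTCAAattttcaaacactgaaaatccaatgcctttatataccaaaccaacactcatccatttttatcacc
WRKY15, chr2:9924736-9924885, plus strand: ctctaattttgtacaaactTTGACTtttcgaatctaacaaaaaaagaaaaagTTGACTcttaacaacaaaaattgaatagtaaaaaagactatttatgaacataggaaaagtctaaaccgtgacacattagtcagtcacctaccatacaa
WRKY12, chr2:18449094-18449243, minus strand: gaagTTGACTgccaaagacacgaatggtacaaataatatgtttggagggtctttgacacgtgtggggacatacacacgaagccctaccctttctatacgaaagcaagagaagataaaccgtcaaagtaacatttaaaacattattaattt
WRKY29, chr4:12291482-12291631, plus strand: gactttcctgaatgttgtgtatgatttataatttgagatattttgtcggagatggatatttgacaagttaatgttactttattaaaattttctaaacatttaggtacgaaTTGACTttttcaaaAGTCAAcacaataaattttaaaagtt
WRKY75, chr5:4151202-4151351, minus strand: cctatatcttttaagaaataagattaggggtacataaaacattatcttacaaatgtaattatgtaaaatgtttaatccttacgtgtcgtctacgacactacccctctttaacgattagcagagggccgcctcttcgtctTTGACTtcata

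The marked and the active members both hold W boxes. Over the 500 bases before the start, 37 of the 67 members (55.2%) had at least 1 W box on either strand, against 45.2% of 27436 genes with a full window. At least 2 were found in 17.9% of members and 14.9% of genes, and at least 3 in 7.46% and 4.00%. The 5 members with 3 W boxes were WRKY11, WRKY17, WRKY30, WRKY33 and WRKY45. WRKY30 is an early gene of defence responses. Among members with H3K27me3, 16 of 33 had a W box, and among members with Pol II in all 8 control lists 13 of 22 had one. A match is a string of letters and not a measured binding site.

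The leaf label was checked first. RBCS1A and CAB1, genes of photosynthesis, had H3K4me3 in 4 of 4 fwa lists and Pol II in 8 of 8 control lists, and CAB3 had them in 3 of 4 and 5 of 8. RBCS1A also had H3K27me3 in 1 of 2 lists. The floral and seed regulators AP1, AG, PI, SEP3, LEC2 and FUS3 had H3K27me3 in both fwa lists of SET1 and SET2 and Pol II in 0 of 8, and AP3 had H3K27me3 in both and Pol II in 1 of 8. AP1, AG, PI, AP3 and SEP3 each had H3K4me3 in 1 of 4 lists. The H3K27me3 lists of SET14 stood apart. They held 940 to 2199 peaks, against 10949 to 14912 in SET1 and SET2. Of the 1678 genes marked in either fwa list of SET14, 42.3% also had a peak in fwa of SET1 or SET2, and 61.8% had Pol II in all 8 control lists. Among the members, 12 had a peak in either list, and WRKY11, WRKY18, WRKY33 and WRKY70, 4 genes with Pol II in all 8 lists, had one there and in neither fwa list of SET1 and SET2. H3K27me3 is therefore described from SET1 and SET2, and the EYFP-ZF comparison of this mark, which rests on SET14 alone, is given apart.

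H3K27me3 covered a large part of the family in fwa leaves. A peak was present over 50.75% and 53.7% of members in the SET1 and SET2 lists, where all genes gave 25.04% and 23.55%, and 33 members (49.25%) had it in both lists, against 21.3% of genes. The peaks were also high within their lists. The rank of a peak is the percentage of peaks of the same list with a lower fold, and the median rank over marked members was 90.5 in SET1 and 92.2 in SET2, where all genes gave 71.2 and 71.5. In a whole leaf, a mark on few cells and a weak mark on all cells cannot be told apart. The share of members was above that of all genes in 14 of 14 H3K27me3 lists, fusions included.

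The mark followed the subgroups. All 8 members of group IIb and 15 of 18 in group IIc had H3K27me3 in both lists, while group I had 1 of 10 (WRKY58), group IIa 0 of 3 and group IId 0 of 7. Group IIe held 4 of 7 and group III 4 of 12. WRKY12, which restrains wall thickening in the pith, had the highest mean rank, with 98.5 in SET1 and 97.4 in SET2. WRKY35, WRKY6, WRKY72 and WRKY8 followed with mean ranks of 97.6, 97.4, 97.0 and 96.7, and each of these 5 genes ranked 93.6 or higher in both lists. At the other end, WRKY30 ranked 7.36 and 23.9, and WRKY9 42.1 and 28.9. WRKY10, WRKY38 and WRKY49 also stood low, at mean ranks of 66.7, 67.1 and 73.9, but with lists far apart. WRKY10, a seed gene also called MINISEED3, had 84.3 in SET1 and 49.2 in SET2. WRKY27, WRKY40, WRKY43 and WRKY54 had a peak in 1 of the 2 lists.

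**Figure D1:**
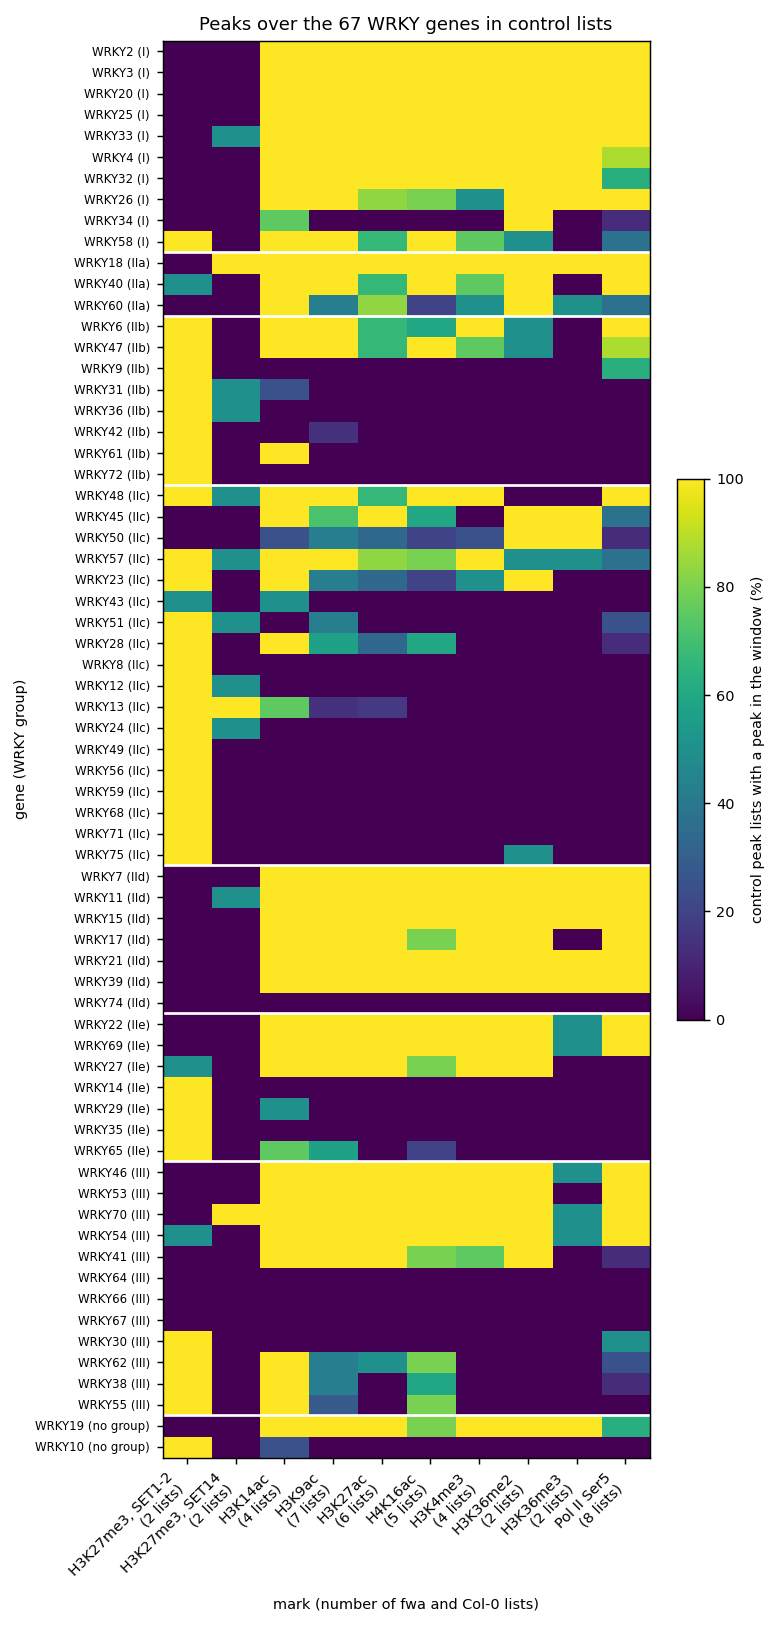
Each row is a WRKY gene with its group and each column a mark with its number of control lists (fwa, and Col-0 for Pol II), and the colour is the percentage of those lists with a peak in the window. H3K27me3 has a first column for SET1 and SET2 and a second for SET14. Groups IIb and IIc are marked in the first column, where 8 of 8 and 15 of 18 genes have H3K27me3 in both lists. Group IId is marked in the columns of the other marks, with Pol II in all 8 lists for 6 of 7 genes.

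**Figure D2:**
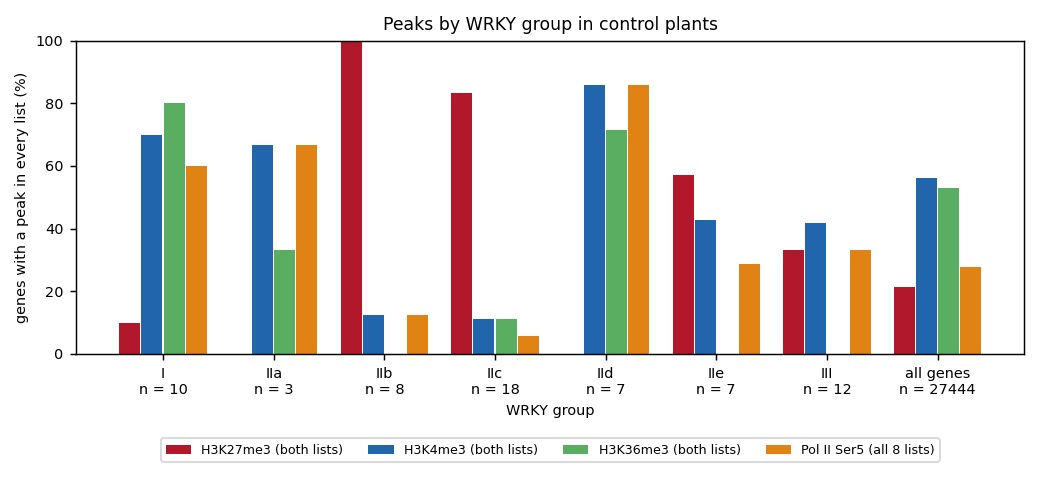
Bars give the percentage of genes with a peak in every list of fwa (for Pol II, fwa and Col-0), by WRKY group and for all 27444 genes. H3K27me3 reaches 100% in group IIb and 83.3% in group IIc against 21.3% of all genes, and no bar of it stands for groups IIa and IId.

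Of the 33 marked members, 22 lacked H3K4me3 and Pol II. H3K27me3 in both lists, with no H3K4me3 in the lists of SET1 and SET2 and no Pol II in any control list, was found for these 22 (32.8% of members, against 13.2% of genes). For 12 of the 33 marked members none of the other 8 marks had a peak in any control list: WRKY8, WRKY12, WRKY14, WRKY24, WRKY35, WRKY36, WRKY49, WRKY56, WRKY59, WRKY68, WRKY71 and WRKY72. WRKY71 promotes shoot branching and flowering, and WRKY8 acts in salt and virus responses. WRKY13, which supports stem strength, and WRKY23, an auxin-responsive gene of roots and embryos, carried acetylation beside H3K27me3. WRKY13 had H3K14ac in 3 of 4 control lists at ranks of 3.91 to 11.7, and H3K9ac and H3K27ac in 1 list each. WRKY23 had H3K14ac in 4 of 4 lists, H3K36me2 in 2 of 2, and H3K4me3 in 2 of 4, neither of them from SET1 or SET2. WRKY29, which acts after flagellin perception, and WRKY75, a gene of phosphate starvation and senescence, had little else, with H3K14ac in 2 of 4 lists for WRKY29 and H3K36me2 in 1 of 2 for WRKY75.

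A few members held H3K27me3 and active marks together. WRKY6, WRKY48 and WRKY57 had both H3K27me3 and H3K4me3 in both lists of SET1 and SET2 (4.48% of members and 3.14% of genes). WRKY6, a senescence and phosphate gene, had Pol II in all 8 control lists at ranks from 52.6 to 93.9, median 83.3, while its H3K27me3 ranked 95.0 and 99.8. Its H3K4me3 was among the weakest of the family in those SETs, at a mean rank of 9.40. WRKY48, a repressor of basal defence, also had Pol II in all 8 lists, at ranks from 50.2 to 93.2, and H3K27me3 at 93.4 and 99.7. WRKY57, a drought gene, had Pol II in 3 of 8 lists, at ranks of 28.3, 37.8 and 44.4. Over all genes, 1.95% had H3K27me3 in both lists and Pol II in all 8, and the 2 members are 2.99% of the family.

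Members with active marks formed the other large block. H3K4me3 in both SET1 and SET2 lists with Pol II in all 8 control lists and no H3K27me3 was found for 17 members (25.4%, against 22.1% of genes), and 11 members had all 8 active marks in every control list: WRKY2, WRKY3, WRKY7, WRKY11, WRKY15, WRKY18, WRKY20, WRKY21, WRKY25, WRKY33 and WRKY39. Pol II was in all 8 control lists for 22 members (32.8%, against 27.8% of genes) and in none for 28. List by list, 35.8% to 52.2% of members had a Pol II peak in control plants, against 32.9% to 59.0% of genes. The share of members was above that of all genes in 2 of the 8 lists. Where Pol II was present it ranked high. The median rank over members was above that over all genes in 18 of 18 Pol II lists, at 75.7 to 86.3 in the control lists, where all genes gave 67.6 to 74.3.

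The highest Pol II ranks were those of WRKY70, WRKY18, WRKY40 and WRKY33. WRKY70, which links salicylic acid signalling and restrains senescence, ranked between 98.8 and 99.97 in the 8 control lists, with a median of 99.5. WRKY33, needed for camalexin synthesis and resistance to necrotrophic fungi, ranked from 94.0 to 99.8, median 97.3. WRKY40, which with WRKY18 and WRKY60 restrains basal defence, ranked from 88.1 to 99.9, median 97.7. These ranges overlap, so the order among the 3 genes is not set by the lists. WRKY15 and WRKY11 of group IId had medians of 95.9 and 95.6, beside 95.55 for WRKY53. Other defence members had little Pol II: WRKY38 and WRKY41 had it in 1 of 8 lists, WRKY62 in 2 and WRKY30 in 4. Over the fwa lists of SET8 to SET11, WRKY70, WRKY40, WRKY33, WRKY18 and the senescence gene WRKY53 had the highest mean ranks, 99.3, 99.0, 98.4, 98.2 and 97.5. WRKY60, the near relative of WRKY18 and WRKY40, had Pol II in 3 of 8 lists, at ranks of 23.4, 50.2 and 70.3, below every list of WRKY40. WRKY20, WRKY21, WRKY17, WRKY69 and WRKY39 were lowest among members with Pol II in every one of those lists, at mean ranks of 57.1, 57.4, 64.9, 73.7 and 75.2.

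H3K4me3 was rarer and weaker over the family than over all genes. Its lists marked 40.3% to 47.8% of members in control plants, against 59.1% to 62.7% of genes, and the median rank of the member peaks was 24.4 to 42.3, against 55.9 to 56.7. Over the fwa lists of SET1 and SET2, and the 27 members with a peak in both, WRKY4, WRKY2, WRKY32, WRKY3 and WRKY11 had the highest mean ranks, 93.0, 89.3, 87.2, 85.0 and 83.8, and 4 of these are in group I. In the same lists WRKY60, WRKY27, WRKY6, WRKY46 and WRKY57 had the lowest, 3.77, 6.07, 9.40, 10.8 and 12.9. The lists differed: over all 4 control lists WRKY57 had a median of 30.1 and WRKY70 one of 93.5. WRKY46, a gene of basal resistance, thus had weak H3K4me3 and Pol II in 8 of 8 lists, at ranks from 55.7 to 98.8. WRKY53 had H3K4me3 ranks of 3.24 to 34.8 over 4 lists and Pol II ranks of 72.9 to 99.6. WRKY33 differed from both, with H3K4me3 ranks of 10.96 to 95.8 and a median of 80.5.

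H3K36me3 was the mark in which the family fell furthest below other genes in share. Control lists gave 26.9% and 34.3% of members, against 55.9% and 56.0% of genes, with median ranks of 32.0 and 37.4 against 59.7 and 61.4. Both lists had a peak over 17 members (25.4%, against 52.9% of genes), of which 8 were in group I and 5 in group IId. No member of groups IIb, IIe and III had it in both lists. WRKY6, WRKY17, WRKY40, WRKY48 and WRKY53 had Pol II in all 8 control lists with no H3K36me3 in either list, 7.46% of members and 3.74% of genes. H3K36me2 without H3K36me3 was found for WRKY17, WRKY23, WRKY27, WRKY34, WRKY40, WRKY41 and WRKY53, 10.45% of members and 6.53% of genes. In WRKY40 the H3K36me2 peak ranked 88.0 and 93.4, and in WRKY53 71.0 and 90.3.

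Acetylation was split in the same way. H3K14ac marked 59.7% to 65.7% of members and 69.1% to 70.9% of genes in control lists, H3K27ac 38.8% to 53.7% and 60.1% to 65.3%, and H3K9ac 46.3% to 59.7% and 56.2% to 63.6%. H4K16ac was closer to other genes, at 41.8% to 55.2% and 40.6% to 60.7%, and its median member rank was 64.0 to 86.6 against 57.3 to 64.2. WRKY70 had the H4K16ac peak at ranks of 94.7 to 99.6 in 5 lists, and WRKY40 at 81.2 to 99.4. WRKY61, a group IIb gene with H3K27me3, had H3K14ac in all 4 control lists and no peak of any other active mark. WRKY41 had H3K14ac at ranks of 64.7 to 98.1 and Pol II in 1 of 8 lists. WRKY34, known from pollen, had H3K36me2 in both lists, H3K14ac in 3 of 4 and Pol II in 1 of 8.

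**Figure D3:**
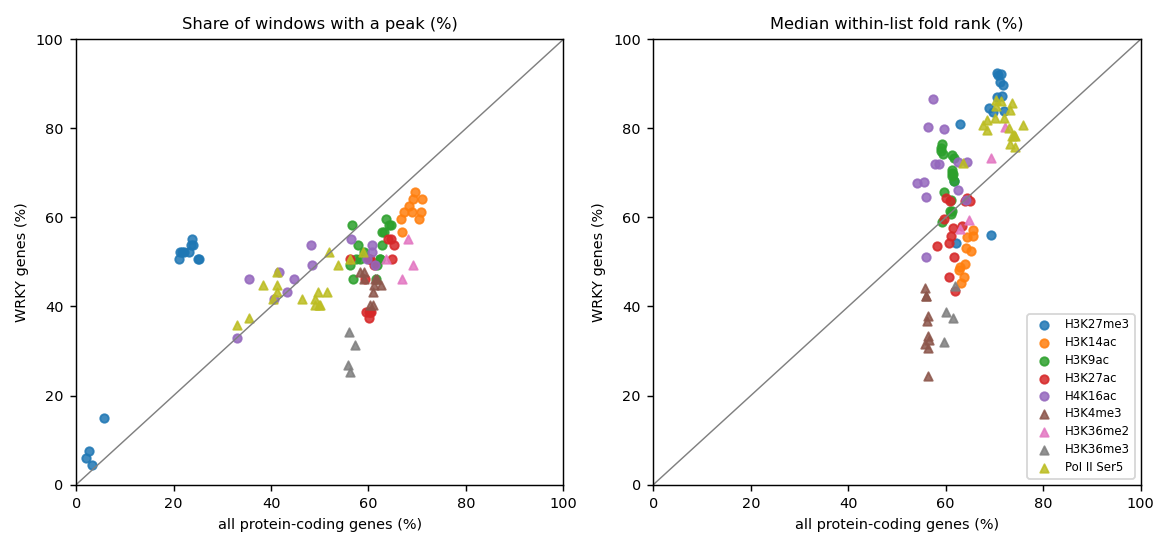
Each point is 1 of the 104 leaf lists, with the value over all protein-coding genes on the x axis and over the WRKY genes on the y axis, both in percent, for the share of windows with a peak (left) and the median within-list fold rank (right). H3K27me3 lies above the diagonal in 14 of 14 lists on the left, and Pol II lies above it in 18 of 18 lists on the right, while H3K4me3 and H3K36me3 lie below it in both.

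WRKY64, WRKY66, WRKY67 and WRKY74 had no peak in any of the 104 leaf lists. The first 3 are in group III and WRKY74 is in group IId, where the other 6 members had Pol II in all 8 control lists. The windows of WRKY64 and WRKY67 are neighbours on chromosome 1, 3357 bp apart. Reads that map to several places were removed by the authors, and how much of these genes could be mapped was not tested. Every other member had a peak in 10 to 94 lists, with the most for WRKY18 and WRKY54.

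ZF sites were taken at 4-fold or more from a flower bud list labelled FLAG TRB1-ZF, read here as the authors' FLAG-ZF list. The label does not settle that reading, and whether TRB1 adds sites of its own was not tested. A site of this list lay in the window of 16 members (23.9%), against 20.7% of genes. Regions of any fold lay in 50.75% of members and 49.6% of genes, so the family was close to other genes in ZF binding. WRKY13 had the highest fold, 9.92, with its summit at −824 bp from the start in a region at chr4:18335233-18336000. The summit lay beyond the 500 bp of the window, which the region reached with its edge. WRKY61 followed at 9.21, with the summit 21 bp into the gene, and WRKY38 at 8.69, with the summit at −44 bp. WRKY38 limits basal defence together with WRKY62. WRKY67, WRKY75, WRKY6 and WRKY48 had folds of 7.606, 7.497, 7.227 and 7.155. The summit of WRKY67, at −629 bp, also lay beyond the window. In WRKY75 the summit lay 1649 bp from the start, past the end of the 1464 bp gene. In WRKY6 the fold belongs to another summit of the region than the first listed, which was 1.93.

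The other sites were those of WRKY42 (6.35), WRKY24 (6.10), WRKY4 (5.74), WRKY8 (5.56), WRKY54 (5.42), WRKY57 (4.95), WRKY10 (4.92), WRKY9 (4.54) and WRKY65 (4.53). The summit of WRKY4, at −564 bp, lay beyond its window, which the region reached with its edge. WRKY45, WRKY35, WRKY22 and WRKY2 were just under the limit, at 3.91, 3.81, 3.75 and 3.74. Of the 16 members with a site, 13 (81.25%) carried H3K27me3 in both fwa lists, against 49.25% of all members and 20.99% of the 5674 genes with a site. In the other direction, 39.4% of the 33 marked members and 20.4% of marked genes had a site. Among members with H3K27me3 and neither H3K4me3 nor Pol II, 8 of 22 had one (36.4%, against 18.3% of such genes). None of the 17 members with H3K4me3 and Pol II and no H3K27me3 had a site, against 22.95% of the 6060 genes in that state. These shares are descriptions with no test, and 6 of the 16 summits lay before the gene start. Bud sites were set beside leaf marks here, since FLAG and histone lists come from different tissues.

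**Figure D4:**
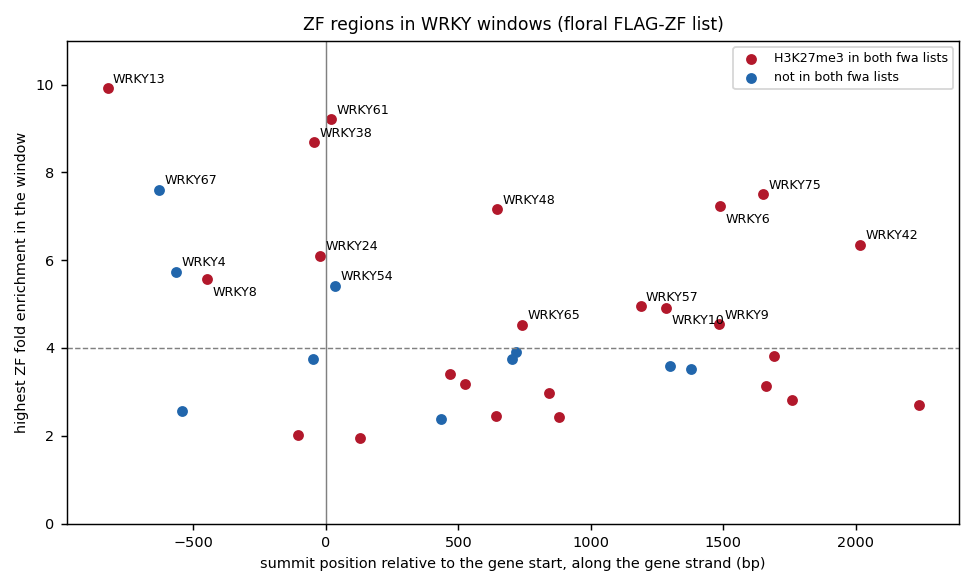
Each point is a WRKY window with a ZF region, placed by the distance of its highest summit from the gene start along the strand (x, bp) and by its fold enrichment (y), and coloured by H3K27me3 in fwa. Labels name the 16 members above the dashed line at 4-fold, from WRKY65 at 4.53 to WRKY13 at 9.92. Of these, 13 carry H3K27me3 in both lists (81.25%, against 49.25% of all members and 20.99% of all genes with a site).

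ELF7, a subunit of the PAF1 complex that travels with Pol II, was mapped in buds as ELF7-FLAG under its own promoter. The paper describes the ELF7-FLAG plants as complementing lines made in the elf7 mutant. Its lists marked 34.3% and 26.9% of members, against 48.7% and 35.1% of genes. In both lists, with at least 2-fold in replicate 2, 16 members had a peak (23.9%, against 33.7% of genes), and 15 of them had Pol II in all 8 leaf lists. Both together were found for 22.4% of members and 20.1% of genes. The exception was WRKY45. The replicate 2 peak of WRKY53 was 8.43-fold, at a rank of 98.35 in its list, and those of WRKY26, WRKY70 and WRKY33 ranked 97.6, 95.05 and 89.1. The first list and the HD2A-FLAG list hold positions without a fold. HD2A-FLAG, a histone deacetylase list of 415 peaks, marked WRKY22 and no other member, 1.49% of the family against 1.40% of genes.

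Each fusion was then compared with fwa of its SETs, to ask whether the tethered protein changed marks at members. A member counted as gained when every fusion library and no fwa library had a peak, and as lost in the reverse case. Over 30 comparisons with 2 fusion libraries, 13 gains and 13 losses were counted, in 18 different members, and 12 comparisons had none. This is 0.647% of pairs of member and comparison in each direction, where all genes gave 0.329% gained and 0.669% lost. Several comparisons share fwa libraries, so these counts are not independent. With 2 libraries against 2, an exact permutation test cannot go below p = 0.333 for a single gene. With 1 fusion library left beside 1 fwa library (2 in some comparisons of the HD2 fusions), 105 calls were made without replicate 1 and 133 without replicate 2. The share of all genes called in these 2 settings was not counted. Of the 26 calls, 3 were also made with peaks of a −log10 q of at least 10, and WRKY75 in CPL2-ZF for Pol II was the only call kept under all 5 other choices of window, overlap and q.

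For H3K27me3, no member was gained in LHP1-ZF, MSI1-ZF, JMJ14-ZF or ELF7-ZF. LHP1 reads H3K27me3 and MSI1 is a subunit of the complex that writes it. The background of gained genes was 0.353% in LHP1-ZF, 0.499% in MSI1-ZF, 0.186% in JMJ14-ZF and 0.149% in ELF7-ZF, and that of lost genes was 0.926%, 1.04%, 0.485% and 0.357%. WRKY30 was the only loss among these 4 fusions. Its peak in fwa was low, at ranks of 7.36 and 23.9, and it was absent from both MSI1-ZF libraries. In SET1 it was absent from all 4 fusions, and in SET2 it ranked 16.9 in ELF7-ZF, 30.9 in JMJ14-ZF and 73.8 in LHP1-ZF, a peak found in some libraries and not in others of 1 SET. EYFP-ZF, read in the thin SET14 lists, lost the peak of WRKY13 (ranks 28.65 and 61.5 in fwa), where 0.299% of genes were lost and 0.0328% gained.

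Ranks of marked members were compared next, over the 32 with a peak in every library of a comparison. Every fusion library lay above every fwa library for 3 members in ELF7-ZF, 5 in JMJ14-ZF, 5 in LHP1-ZF and 6 in MSI1-ZF, where 13.9%, 14%, 13.6% and 14.8% of genes did. Every fusion library lay below for 5, 3, 9 and 2 members, where 17.1%, 19.2%, 22.4% and 23.8% of genes did. As shares of the 32 members these counts are 9.38% to 18.8% above and 6.25% to 28.1% below, and the largest gap from the background is that of the members below fwa in MSI1-ZF. None of these members passed the limma test without a replicate block. With SET as a replicate block, WRKY55 alone passed, as a member below fwa in MSI1-ZF. Its limma adjusted p was 0.002998 with the block and 0.6564 without it. WRKY9, which has a ZF site in its body, ranked 42.1 and 28.9 for H3K27me3 in fwa, 72.2 and 87.6 in JMJ14-ZF, and 79.2 and 70.2 in LHP1-ZF. The limma test over all genes with a peak gave adjusted p of 0.974 and 0.79957. WRKY13, the member of highest ZF fold, ranked 94.4 and 93.3 in fwa and 99.4 and 99.9 in ELF7-ZF, with an adjusted p of 0.99769. It also lay above both fwa libraries in JMJ14-ZF, LHP1-ZF and MSI1-ZF, and all of these fusions share those fwa libraries. WRKY75 ranked 73.6 and 81.7 in fwa and 32.9 and 45.8 in JMJ14-ZF, with an adjusted p of 0.974. WRKY75 lay below both fwa libraries in ELF7-ZF too, at 52.7 and 63.8, but not in LHP1-ZF or MSI1-ZF. WRKY38 ranked 76.2 and 58.1 in fwa, 90.7 and 87.0 in LHP1-ZF and 89.6 and 88.5 in MSI1-ZF, with adjusted p of 0.825 and 0.702. These 4 genes hold ZF sites, and the comparisons shown for them were picked after their values were seen. Over the 33 marked members, the median length under H3K27me3 peaks was 1754 to 2158 bp in the 8 fusion libraries, against 2076 and 1973 bp in fwa of SET1 and SET2.

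JMJ14 removes H3K4me3. In JMJ14-ZF, WRKY23 gained an H3K4me3 peak of ranks 0.756 and 3.09, at the very bottom of the lists, and no member lost one, where 0.0984% of genes were gained and 0.193% lost. In ELF7-ZF, WRKY45, a phosphate uptake regulator, gained H3K4me3 at ranks of 2.78 and 66.6, and the latter peak covered 14 bp of the window. WRKY60 lost H3K4me3, which had ranked 1.335 and 6.20 in fwa. Background shares there were 0.0619% gained and 0.113% lost. In EYFP-ZF no member changed its H3K4me3 call, with 0.138% of genes gained and 0.281% lost.

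ELF7-ZF gained H3K36me2 at WRKY9, at ranks of 48.2 and 83.6 over 282 and 519 bp, where 0.896% of genes were gained and 0.0437% lost. WRKY9 holds a ZF site of 4.54-fold at 1483 bp into the gene. No member changed its H3K36me3 call in ELF7-ZF (0.16% of genes gained, 0.051% lost).

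For Pol II Ser5, WRKY75 in CPL2-ZF was the gain of highest rank. CPL2 is a phosphatase of Pol II Ser5. WRKY75 had no Pol II peak in any of the 8 control lists, while the CPL2-ZF libraries ranked it 90.4 and 87.8, at 7.57-fold and 6.05-fold over 1492 and 1384 bp of the window. Its ZF site of 7.497-fold lies past the end of the gene, in a region at chr5:4149205-4150035. Of the other 8 fusion and mutant lists, ELF7-ZF of SET9 had a peak over it, at a rank of 29.2. The background in CPL2-ZF was 0.674% of genes gained and 1.44% lost, and no member was lost. WRKY57 and WRKY9, also with ZF sites, had Pol II in both CPL2-ZF libraries and in 1 of 2 fwa libraries. The median covered length of WRKY57 was 1963 bp in CPL2-ZF and 460.0 bp in fwa.

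In ELF7-ZF no member was gained or lost for Pol II (0.324% of genes gained, 0.335% lost). WRKY54, a partner of WRKY70 in restraining senescence, ranked 96.7 and 91.9 in fwa and 82.4 and 63.7 in ELF7-ZF. The difference was −0.97 (SE 0.33) on the inverse-normal rank scale, with a limma adjusted p of 0.999, and with SET as a replicate block the adjusted p was 0.00486. WRKY54 holds a ZF site 35 bp into the gene. WRKY70 ranked 99.6 and 99.8 in fwa and 97.65 and 96.9 in ELF7-ZF, with an adjusted p of 0.999. In HD2A-ZF, WRKY38 gained a Pol II peak of ranks 1.25 and 23.0 (0.222% of genes gained, 0.871% lost). It has the ZF site of 8.69-fold at its start.

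EYFP-ZF gained Pol II at WRKY13, where it had lost H3K27me3 in the same SET, and at WRKY27, and lost it at WRKY19, where 0.725% of genes were gained and 0.915% lost. WRKY13 ranked 59.3 and 63.1 in EYFP-ZF, over 78 and 1177 bp, and had no Pol II peak in any other list. WRKY27, which bears on bacterial wilt, ranked 81.5 and 61.8 in EYFP-ZF, over 1732 and 1666 bp, and 59.8 in 1 library of the elf7 mutant. WRKY19 had ranked 12.7 and 11.1 in fwa of the same SET. The elf7 mutant gained Pol II at WRKY51 and WRKY57 against Col-0, at ranks of 31.5 and 52.0 and of 70.2 and 10.3, and lost it at no member, where 0.179% of genes were gained and 3.55% lost. WRKY51 was also found in 6 of the 8 lists of ELF7-ZF, HD2A-ZF, CPL2-ZF and EYFP-ZF and in 2 of 8 control lists.

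**Figure D5:**
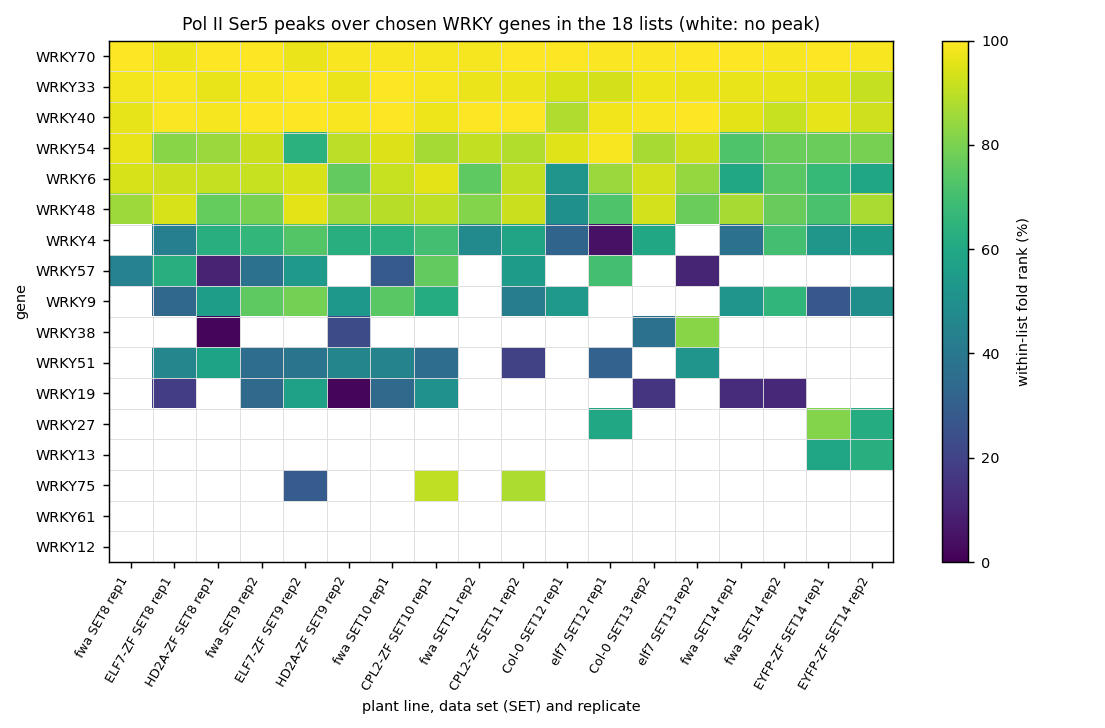
Rows are 17 chosen WRKY genes and columns the 18 Pol II Ser5 lists by line, SET and replicate, and the colour is the within-list fold rank in percent (white: no peak). WRKY70, WRKY33 and WRKY40 stay at ranks of 88.1 or more in all 18 lists, WRKY75 has a peak in 3 lists, with 90.4 and 87.8 in CPL2-ZF, and WRKY12 and WRKY61 have none.

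HDA6 is a histone deacetylase, and MSI1 is also found in a complex with one. In HDA6-ZF, WRKY34 lost H3K14ac (ranks 7.24 and 4.44 in fwa), and WRKY51 and WRKY55 lost H3K9ac (18.8 and 14.1, and 10.7 and 5.78 in fwa). Backgrounds were 0.35% gained and 1.45% lost for H3K14ac and 0.474% gained and 0.598% lost for H3K9ac. In MSI1-ZF, WRKY65 lost both H3K14ac (22.4 and 25.6 in fwa, over 422 and 605 bp) and H3K9ac (6.28 and 22.1), and it holds a ZF site of 4.53-fold. WRKY45 lost H3K9ac, which had ranked 53.55 and 40.7 in fwa, and WRKY38 gained it at ranks of 1.72 and 13.4. MSI1-ZF backgrounds were 0.7% gained and 1.53% lost for H3K14ac and 1.25% gained and 0.66% lost for H3K9ac. Both fusions share the fwa libraries of SET7.

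HD2A, HD2B and HD2C belong to a plant-specific deacetylase family, and few members were called in their fusions. WRKY39, a group IId gene, lost H4K16ac in HD2A-ZF and in HD2C-ZF, where the 3 fwa libraries that both share had ranks of 35.35, 42.2 and 55.05. WRKY62 lost H4K16ac in HD2A-ZF, with fwa ranks of 1.445, 41.3 and 6.64. No member was called for H4K16ac in HD2B-ZF. H4K16ac backgrounds were 0.102% gained and 0.98% lost in HD2A-ZF, 0.102% and 0.882% in HD2B-ZF, and 0.0619% and 1.07% in HD2C-ZF. For H3K27ac no member was called in the 3 fusions, with 0.051% gained and 0.0583% lost in HD2A-ZF, 0.00364% and 0.189% in HD2B-ZF, and 0.0474% and 0.051% in HD2C-ZF. For H3K9ac in HD2A-ZF no member was called (0.284% gained, 0.131% lost). With 1 library each, HD2B-ZF showed H3K9ac at WRKY8, WRKY28 and WRKY43, which fwa of SET3 lacked, and HD2C-ZF showed it at WRKY23 and lacked it at WRKY38. Of all 27444 genes, 282 were gained and 569 lost in HD2B-ZF, and 253 were gained and 384 lost in HD2C-ZF. Those lines have no replicate for this mark.

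EYFP-ZF carries no effector and gave members of the same kind. WRKY29 gained H3K14ac at ranks of 5.00 and 14.5 (0.441% of genes gained, 0.63% lost), WRKY65 gained H3K27ac at 1.61 and 0.0841 (0.138% gained, 0.408% lost), and WRKY45 gained H3K9ac at 37.4 and 45.9 (0.466% gained, 0.153% lost). For H4K16ac no member was called (0.703% gained, 0.394% lost). Over its 7 comparisons EYFP-ZF gave 5 gains and 2 losses, of the 13 gains and 13 losses in all.

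The test of ranks, limma with Benjamini-Hochberg adjustment over all genes with a peak in every library, called 75 of 358523 gene tests (0.0209%) in 11 of the 30 comparisons. No member was among them. Of 819 member tests, 61 had an unadjusted p under 0.05 (7.45%, against 5.02% of all tests), and the lowest adjusted p was 0.220, for H3K9ac of WRKY58 in MSI1-ZF. In simulated lists the median share of shifts of 1.5 that the test recovered was 0% over the comparisons, with 61% at most, so a shift of that size could be missed at this number of libraries. With SET or replicate number as a replicate block 2 members passed, where 0.134% of all gene tests were called. Beside WRKY54 this was WRKY55, its neighbour 919 bp away on chromosome 2, whose H3K27me3 ranked 67.35 and 99.4 in fwa and 47.95 and 3.58 in MSI1-ZF. Its difference was −2.37 (SE 0.51) with an adjusted p of 0.00300, and without the block the SE was 0.72 and the adjusted p 0.656. The block called 0.373% of genes in that comparison and 1.59% in that of WRKY54.

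Genes that act with WRKY factors in leaf immunity were read beside them, as a list of 25 that was chosen with results of these data known. Pol II was in all 8 control lists for 15 of the 25 and H3K27me3 in both lists for 9, where 27.8% and 21.3% of all genes had them. MPK3, a kinase upstream of WRKY33, had a median Pol II rank of 98.55, SIB1 of 96.9 and PAD4 of 92.2. The markers PR1, SAG12 and ALD1 had H3K27me3 at mean ranks of 91.3, 90.2 and 85.7 and Pol II in no control list. SARD1, CBP60G, PR2 and MPK4 had H3K27me3 in both lists and Pol II in all 8. ZF sites lay in 3 of the 25, SARD1, MPK3 and MPK4, at 5.69-fold, 6.23-fold and 7.37-fold, where 20.7% of all genes held one. In the 30 comparisons, 6 gains and 6 losses were counted, 0.8% of pairs of partner and comparison in each direction, beside 0.329% and 0.669% over all genes. The gains were those of NIMIN1 (H3K14ac, EYFP-ZF), PBS3 (H3K9ac, HDA6-ZF and MSI1-ZF), FMO1 (H4K16ac, EYFP-ZF), PR1 (H4K16ac, HD2B-ZF) and CYP71A13 (Pol II, CPL2-ZF). The losses were those of NIMIN1 and PR2 (H3K14ac, HDA6-ZF), PR5 (H4K16ac, HD2A-ZF), the salicylic acid synthesis gene ICS1 (H4K16ac, HD2B-ZF and HD2C-ZF) and MPK6 (Pol II, elf7).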

How the data were processed

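The members, the groups and the partner list were chosen with earlier results of these data known. Of 251 samples, the 108 with a ChIP–seq peak list were used (104 leaf, 4 FLAG), and the RNA-seq, H3 and control FLAG libraries were not analysed here. Mapping by the authors was to TAIR10 (Bowtie2 2.1.0, unique reads, no mismatch), followed by removal of duplicates (SAMtools 1.9) and a MACS2 (2.1.1) call for each library. The deposited fold enrichment gives the ratio between the summit's signal and its local background. The deposited −log10 q was computed by the authors' caller for each peak. The control of the calls is stated for FLAG-ZF alone, which was called against fwa. Depth is unknown, so the number of peaks (940 to 29961 per leaf list) stands beside shares, and no interval was given. The methods name the same antibody entry for H3K14ac and H3K27ac.

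A window had a peak at 1 bp of overlap, and its rank came from the highest fold there. Ranks were turned into inverse-normal scores and compared with limma (3.58.1, R 4.3.3) over all genes with a peak in every library, with adjustment over all genes of a comparison and a threshold of 0.05. The test was checked on simulated lists with 200 shifted genes. Libraries of 1 SET deviated together (r 0.0326 to 0.413 over 19 comparisons, above 0.1 in 15), and those sharing a replicate number alone did not (r −0.0516 to 0.0253 over 11). The SET pairing comes from the labels. Named were members with a ZF site, called members, the 5 highest and 5 lowest ranks of H3K27me3, H3K4me3 and Pol II, members without peaks and a list of textbook genes. WRKY groups were assigned by hand from general knowledge of the family. Other choices of window, overlap, q, scale, block and replicate were tried. The 28 BS-PCR files served to check the build, and the same 5 bases stood around all 3145 cytosines in TAIR10.1. Windows and ranks were computed in Python (3.11.15) with pandas (2.3.3), numpy (2.4.6) and scipy (1.17.1), and plots drawn in matplotlib (3.10.9).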

Additional observations from a re-analysis of the deposited data

Results flagged for a closer look

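H3K9ac of WRKY45 was called in opposite directions in a pair of fusions. It was gained in EYFP-ZF, where the lists with a peak had a mean rank of 41.6, and lost in MSI1-ZF, where the fwa lists with a peak had a mean rank of 47.1. Every library of each fusion moved the same way, and the difference between the fusions was not tested. These calls were absent when the gene body alone or a summit inside the window was required.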

How the results depend on the processing

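The share of members with a peak, averaged over control lists (H3K27me3: SET1 and SET2), fell in a window of 500 bp on each side of the start to 49.25% from 52.24% for H3K27me3, 30.6% from 48.51% for H3K36me2, 46.91% from 52.24% for H3K9ac, 53.73% from 62.69% for H3K14ac, 42.69% from 48.66% for H4K16ac and 35.63% from 42.91% for Pol II. With peaks of −log10 q of at least 10 it was 45.52% for H3K27me3, 38.81% for H3K4me3, 39.55% for H3K36me2, 21.64% for H3K36me3, 43.07% for H3K9ac, 42.91% for H3K14ac, 38.31% for H3K27ac, 27.46% for H4K16ac and 33.21% for Pol II. Without 1 fwa library in turn the shares ranged from 61.69% to 63.68% for H3K14ac, 45.67% to 48.66% for H3K27ac, 50.75% to 53.73% for H3K27me3, 46.27% to 50.75% for H3K36me2, 26.87% to 34.33% for H3K36me3, 43.28% to 45.77% for H3K4me3, 51.0% to 53.23% for H3K9ac, 47.01% to 50.37% for H4K16ac and 41.58% to 43.92% for Pol II. Gained and lost calls numbered 105 to 133 with 1 fusion library per comparison, against 26, and all genes were not counted in that setting. Shifted ranks numbered 0, and 2 with the replicate block (WRKY54 and WRKY55), 1 where a gene could lack a peak in some libraries (WRKY45, H3K9ac in MSI1-ZF, limma adjusted p 0.0250), and 0 to 2 without 1 library in turn. The latter were WRKY48 and WRKY39 (H3K14ac, without HDA6-ZF replicate 1 and 2), WRKY60 and WRKY58 (H3K14ac, without MSI1-ZF replicate 1) and WRKY46 (Pol II, without fwa replicate 1 of SET14). The fits named last left 1 library in a group. The share of all genes called is not given here for fits without a library or with peaks allowed to be missing. The members named from them therefore stand without a background. ZF regions of at least 2-fold lay in 33 members, against 16 sites of 4-fold. Of the settings tried, 132 kept a count within 1.5 times or a share within its spread, 15 moved a share beyond its spread and 9 raised a count. The raised counts were those of gained and lost calls, of rank calls and of ZF regions. Directions were not compared between settings. A count kept in size need not hold the same calls: with −log10 q of at least 10 there were 33 gains and losses, 3 of them among the 26, and with a summit in the window 20, all among the 26. Gains and losses over all genes were not counted in these settings, and the cause of the changes was not tested.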

Other observations

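Data sets differed in which members they marked. H3K4me3 was found over 46.3% to 47.8% of members in the SET1 lists and 40.3% to 43.3% in the SET2 lists, while all genes gave 58.2% to 59.1% and 60.3% to 60.9%. WRKY26, WRKY40 and WRKY47 had it in every list of SET1 and in none of SET2, as 1.47% of genes did, with 2.64% the other way round. H3K27ac marked 46.3% to 50.75% of members in SET3 and 37.3% to 38.8% in SET4, with WRKY40, WRKY48 and WRKY58 in SET3 alone (1.37% of genes, and 1.31% in SET4 alone). H3K36me3 was present over WRKY54, WRKY57 and WRKY70 in the lists of SET14 and absent from those of SET20 (2.31% of genes, and 1.83% the other way round). For H3K36me2, WRKY6, WRKY47, WRKY57 and WRKY58 were marked in SET14 alone and WRKY75 in SET20 alone, beside 1.96% and 2.89% of genes. Each SET holds fusions and fwa together, so these differences lie between data sets and not between lines.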
